A study of Saccharomyces cerevisiae with 18 samples.

Results

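Aminoacyl-tRNA synthetases are the enzymes that join each amino acid to its transfer RNA (tRNA), the step that sets which amino acid a codon is read as. The family was taken as 35 Saccharomyces cerevisiae genes chosen by systematic name, of which 34 had a row among the 5143 rows of the count table. The list holds 21 genes for cytosolic enzymes, of which 4 were taken as dual, supplying the mitochondrion too, and 14 genes for enzymes that work only in mitochondria. The seryl enzyme gene SES1 had no row and was not analysed here, which leaves 20 cytosolic or dual and 14 mitochondrial genes. All 34 passed the filter on low counts.

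RNA-seq libraries of wild type (WT) yeast, 3 in number, were compared with 3 of ten1-31, a ts (temperature-sensitive) mutant of TEN1. Ten1 acts at telomeres in the complex it forms with Cdc13 and Stn1, and the study's title concerns that complex and transcription by RNA polymerase II. Both genotypes spent the night at 25 °C and nearly 5 h at 34 °C, so WT went through the same temperature shift, and the RNA was depleted of ribosomal RNA. The labels give no strain background, marker genotype, clone or batch, and do not say whether the libraries came from separately started cultures, so the p-values measure only the spread between these libraries. Totals ran from 10469608 to 14442999 counts per library.

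Levels are given in CPM, the counts of a gene relative to the library total after TMM scaling, which adjusts the totals for differences in composition. TEN1 (YLR010C), the mutated gene, rose from 8.85 ± 1.57 to 30.1 ± 0.630 CPM in ten1-31 (means and SD of 3 libraries). A ts allele need not lower the transcript, so this neither checks nor contradicts the labels. TRP1, a common selection marker of yeast strains, was at 31.8 ± 2.92 CPM in the WT libraries and 2396 ± 93.4 CPM in the mutant ones. Its part in the synthetase values was not tested.

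The synthetases form 2 structural classes with unrelated catalytic domains, and each enzyme is specific to its amino acid. Yeast mitochondria carry their own translation system, and most of its synthetases are encoded by nuclear genes separate from those of the cytosol. The genes taken as dual, ALA1, GRS1, HTS1 and VAS1, instead give both forms of their enzyme, through alternative start sites. Several cytosolic synthetase genes are known targets of Gcn4, the activator of amino acid synthesis genes.

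The cytosolic genes that were called fell and the mitochondrial genes that were called rose. Of the 20 cytosolic or dual genes, 15 (75.0%) were lower in ten1-31 and 0 were higher (edgeR, adjusted p under 0.05), against 26.2% lower and 24.3% higher among all 5133 rows tested. Of the 14 mitochondrial genes, 7 (50.0%) were higher and 0 were lower. The median log2 change (log2 of the ten1-31 level over the WT level) was -0.37 for the cytosolic or dual genes and 0.22 for the mitochondrial genes, beside -0.0038 over all rows. At an unadjusted p under 0.05, edgeR had 1 cytosolic gene higher (THS1) and 1 mitochondrial gene lower (MSE1). DESeq2 called 1 cytosolic gene higher, THS1, and 0 mitochondrial genes lower, and limma-voom called 0 of either. WT and ten1-31 libraries had no overlap in CPM for 17 of the 20 cytosolic or dual genes and 7 of the 14 mitochondrial genes, against 60.5% of all rows.

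**Figure D1:**
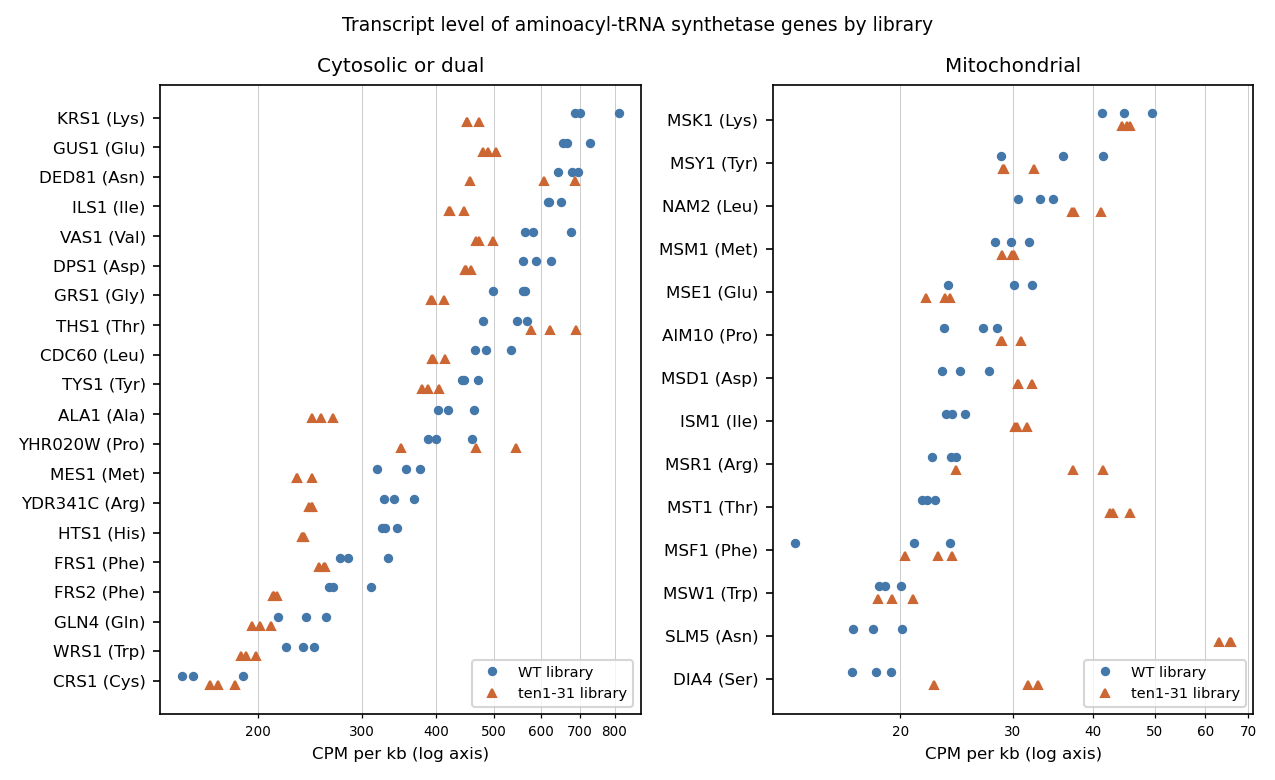
Transcript level of each synthetase gene in CPM per kb of coding length on a log axis, with 1 point per library (circles WT, triangles ten1-31); the panels have different ranges. Most cytosolic genes have their ten1-31 libraries to the left of WT, and SLM5, MST1 and ISM1 among the mitochondrial genes have them to the right.

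Levels differed by about an order of magnitude between the compartments. Per kb of coding length, WT levels ran from 164 CPM for CRS1 to 733 CPM for KRS1 among the cytosolic or dual genes, with a median of 441 CPM. Mitochondrial genes ran from 18.2 CPM per kb for DIA4 to 45.2 CPM per kb for MSK1, with a median of 24.7 CPM. The ranges did not overlap. The calls can also be read against rows of like level. Of the 689 rows in the mean CPM range of the cytosolic or dual genes, 37.4% were lower and 22.1% higher. Of the 2399 rows in the range of the mitochondrial genes, 22.1% were higher and 26.6% lower. Together the 20 cytosolic or dual genes took 1.90 ± 0.0796% of the counts of a library in WT and 1.59 ± 0.0365% in ten1-31 (n = 3 each, SD). The 14 mitochondrial genes took 0.0645 ± 0.00608% in WT and 0.0859 ± 0.000274% in ten1-31 (n = 3 each, SD). Of these 14, 10 had a log2 change above 0 and 4 below, so the summed share does not describe each gene. Both shares are of the raw library totals, without TMM scaling. All values are relative to the library, so fewer transcripts of a gene per cell and more RNA from other genes cannot be told apart.

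Chromosomes VIII, IX and XI stood apart in the ten1-31 libraries and carry 6 of the synthetase genes, so their values come before the single genes. The median deviation of log2 CPM from the WT mean over the 236 tested rows of chromosome VIII was 0.60, 0.45 and -0.00059 in ten1-31 replicates 1 to 3. Replicate 3 was thus at the WT level. It was 0.35, 0.27 and 0.54 over the 177 rows of chromosome IX, and 0.38, 0.44 and 0.46 over the 292 rows of chromosome XI. On the other 13 chromosomes the ten1-31 medians lay between -0.09 and 0.05, and all WT medians lay between -0.04 and 0.02. DED81, YHR020W, MSR1 and DIA4 lie on chromosome VIII, THS1 on IX and MST1 on XI. Copy number of these chromosomes was not tested. Each of these 6 genes is given below also with its counts scaled on the rows of its own chromosome, a setting chosen after seeing the data.

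**Figure D2:**
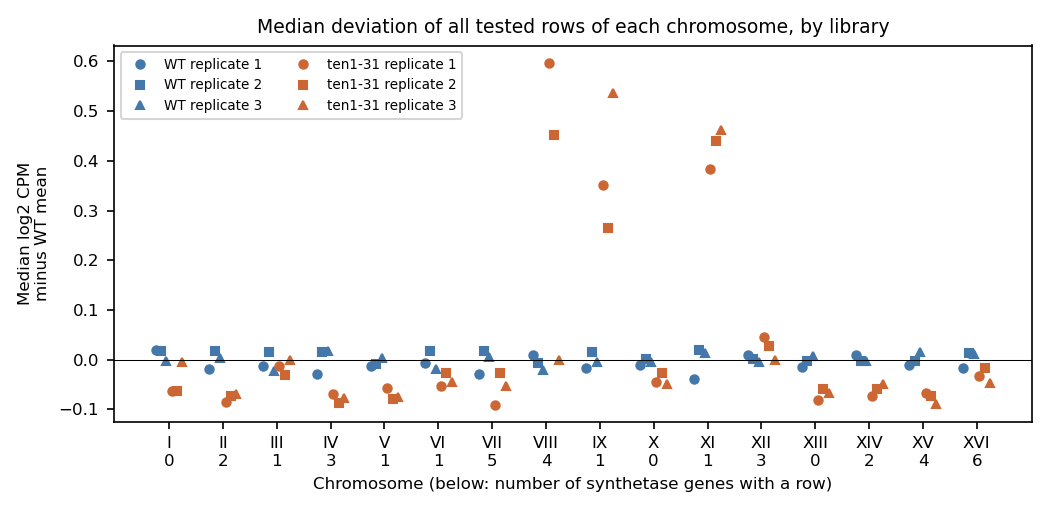
Median over all tested rows of each chromosome of log2 CPM minus the mean of the WT libraries, with 1 point per library (shape, replicate; colour, genotype) and the number of synthetase genes under each chromosome. In ten1-31, chromosomes IX and XI lie above WT in all 3 libraries and chromosome VIII in 2 of 3, while the other 13 chromosomes lie between -0.09 and 0.05.

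Outside these 3 chromosomes, 15 of 17 cytosolic or dual genes (88.2%) were lower, with a median log2 change of -0.40, against 29.6% of 4428 rows. Of the 11 mitochondrial genes there, 4 (36.4%) were higher, with a median of 0.17, against 19.0% of rows. The 17 genes took 1.60 ± 0.0681% of the raw counts in WT and 1.25 ± 0.00784% in ten1-31 (n = 3 each, SD). The 11 genes, with SLM5, the largest rise, among them, took 0.0547 ± 0.00565% and 0.0689 ± 0.00221% (n = 3 each, SD). With every row scaled on its own chromosome, 15 of 20 cytosolic or dual genes were lower (24.8% of all rows) and 5 of 14 mitochondrial genes higher (23.7% of all rows). These 15 were not all the same genes, as DED81 and YHR020W were now called and GLN4 and TYS1 were not. Outside the 3 chromosomes, 13 of 17 cytosolic or dual genes were then lower and 3 of 11 mitochondrial genes higher. The share of rows outside the 3 chromosomes was not computed for that fit, and 3 of 11 is near the 23.7% of all rows. In that fit 0 cytosolic genes were higher and 0 mitochondrial genes lower, also at an unadjusted p under 0.05. The medians were then -0.36 and 0.22.

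ALA1, the alanyl enzyme gene (chromosome XV, 946233 to 949109 in the RefSeq annotation of R64), had the largest fall of the family. Its counts were 18251, 13355 and 15785 over WT replicates 1 to 3, against 9414, 7653 and 10810 for the mutant in the same order. In CPM, this is 1232 ± 89.9 CPM against 738 ± 29.9 CPM (n = 3 each, SD). All ten1-31 libraries lay below all WT libraries, and the log2 change was -0.74 ± 0.08 (SE, edgeR, adjusted p = 0.000362), which left 59.9% of the WT level.

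The other genes taken as dual also fell. GRS1, for glycine, had 15489, 11534 and 14693 counts in WT and 10561, 8449 and 11078 in ten1-31, or 1085 ± 72.7 and 799 ± 22.6 CPM (n = 3 each, SD). HTS1, for histidine, had 7369, 6121 and 7381 counts against 5004, 4190 and 5509, or 544 ± 17.2 and 391 ± 1.75 CPM (n = 3 each, SD). Neither gene's genotypes overlapped in CPM, with log2 changes of -0.44 ± 0.08 and -0.48 ± 0.07 (SE, edgeR, adjusted p = 0.00259 and 0.000845). VAS1, for valine, had 30684, 21558 and 25332 counts in WT and 19811, 17826 and 22009 in ten1-31. Its 2015 ± 198 CPM in WT and 1590 ± 56.5 CPM in ten1-31 (n = 3 each, SD) did not overlap either. Its log2 change of -0.34 ± 0.09 (SE, edgeR, adjusted p = 0.0141) was no longer called without ten1-31 replicate 1 (-0.33, adjusted p = 0.0636). GRS2 (YPR081C), a paralog of GRS1 of low expression in yeast, was at 52.8 ± 1.39 in WT and 57.7 ± 2.06 CPM in ten1-31 (n = 3 each, SD; edgeR, adjusted p = 0.157). How reads shared by the copies were assigned is not stated in the labels.

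Among the other cytosolic genes, KRS1 (chromosome IV, 525440 to 527215), which charges lysine, had the largest fall. Its counts were 19776, 14067 and 16240 in WT and 10722, 8629 and 11248 in ten1-31. The genotypes did not overlap in CPM, at 1302 ± 124 and 813 ± 21.4 (n = 3 each, SD), and the log2 change was -0.68 ± 0.09 (SE, edgeR, adjusted p = 0.000636). The RefSeq gene next to it, ENA5, 206 bp away, had no row.

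MES1 (chromosome VII, 1019598 to 1021853) charges methionine, which also starts proteins, and ILS1 (chromosome II, 81043 to 84261) charges isoleucine. MES1 had 11596, 8255 and 10507 counts in WT and 7113, 5647 and 7386 in ten1-31, or 789 ± 66.3 and 535 ± 17.9 CPM (n = 3 each, SD). ILS1, one of the most abundant, had 28680, 22941 and 26121 counts against 18365, 14585 and 19040, or 2027 ± 58.5 and 1381 ± 46.6 CPM (n = 3 each, SD). Both had every ten1-31 library below every WT library. Their log2 changes were -0.56 ± 0.08 and -0.55 ± 0.07 (SE, edgeR, adjusted p = 0.00121 and 0.000592).

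YDR341C, the cytosolic arginyl enzyme gene (chromosome IV, 1151803 to 1153626), had 9148, 6859 and 8112 counts in WT and 5751, 4849 and 6245 in ten1-31. Its CPM did not overlap between genotypes, at 628 ± 37.0 and 448 ± 2.93 (n = 3 each, SD), a log2 change of -0.49 ± 0.07 (SE, edgeR, adjusted p = 0.00117). GUS1, whose product charges glutamate, fell by 0.47 on the log2 scale. GUS1 and MES1 bind the cofactor Arc1 in a complex in yeast. ARC1 itself was at 604 ± 50.5 in WT and 597 ± 6.47 CPM in ten1-31 (n = 3 each, SD), a log2 change of -0.02 ± 0.08 (SE, edgeR, adjusted p = 0.892), and its sign turned to 0.07 with library size as the only scaling.

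The phenylalanyl enzyme is built from 2 subunits. The gene of the alpha subunit, FRS2, went from 424 ± 39.5 to 322 ± 2.58 CPM (n = 3 each, SD; log2 change -0.40 ± 0.08 SE, edgeR, adjusted p = 0.00547). The gene of the beta subunit, FRS1, was at 531 ± 55.0 and 459 ± 5.36 CPM (n = 3 each, SD), with a log2 change of -0.21 ± 0.09 (SE, edgeR, adjusted p = 0.0797). FRS1 missed the threshold although its genotypes did not overlap, and passed it without WT replicate 2 (-0.26, adjusted p = 0.0348). The difference between the subunits was not tested.

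The remaining cytosolic falls were smaller. DPS1, for aspartate, had a log2 change of -0.39, CDC60, for leucine, -0.30, WRS1, for tryptophan, -0.30, GLN4, for glutamine, -0.24, and TYS1, for tyrosine, -0.21, with edgeR adjusted p-values from 0.00320 for DPS1 to 0.0489 for GLN4. Several of these calls were not kept when 1 library was left out, while the log2 changes stayed negative. Such fits have fewer libraries to test with, but not all of them called fewer rows. All rows called ran from 1824 to 2974 over them, against 2591 with all libraries. Why single calls were lost was not tested. GLN4 was called in only 1 of the 6 fits that each left out a library (without WT replicate 2), with adjusted p-values up to 0.152. TYS1 was called in 2 of 6, without WT replicate 1 or 2, with adjusted p-values up to 0.135. CDC60 (-0.30, adjusted p = 0.0739) and WRS1 (-0.30, adjusted p = 0.0560) lost their calls without ten1-31 replicate 2. Scaled on their own chromosomes, GLN4 (-0.16, adjusted p = 0.149) and TYS1 (-0.16, adjusted p = 0.114) were not called. ALA1, GRS1, HTS1, YDR341C, DPS1, GUS1, ILS1, KRS1, MES1 and FRS2, 10 genes in all, were called lower in every fit at the 0.05 threshold, with adjusted p-values up to 0.0330. The share of all rows called in every fit was not computed, so this count has no background to be read against.

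CRS1, the cysteinyl enzyme gene, was the 1 cytosolic or dual gene outside chromosomes VIII, IX and XI with a log2 change above 0. It was at 434, 343 and 358 CPM in WT and 422, 395 and 382 CPM in ten1-31. The genotypes overlapped, and the log2 change was 0.08 ± 0.10 (SE, edgeR, adjusted p = 0.549). Without WT replicate 1 it was called higher (0.19, adjusted p = 0.0462).

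The 3 remaining cytosolic genes lie on chromosomes VIII and IX. DED81, for asparagine (chromosome VIII, 141894 to 143558), was at 1155, 1127 and 1068 CPM in WT and at 1142, 1012 and 759 CPM in ten1-31 replicates 1 to 3. YHR020W, for proline (143996 to 146062), lies 437 bp from DED81 and was at 950, 802 and 825 CPM in WT and at 1128, 964 and 722 CPM in ten1-31. In ten1-31 replicate 3, where chromosome VIII was at the WT level, both genes lay below every WT library. In replicates 1 and 2 YHR020W lay above every WT library, and DED81 lay within the WT range in replicate 1 and below it in replicate 2. Over all libraries neither was called, at log2 changes of -0.20 ± 0.14 and 0.13 ± 0.16 (SE, edgeR, adjusted p = 0.265 and 0.526). Scaled on the rows of chromosome VIII they were lower by log2 changes of -0.58 ± 0.07 and -0.25 ± 0.08 (SE, edgeR, adjusted p = 0.000349 and 0.0346).

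THS1, for threonine (chromosome IX, 212499 to 214703), was at 1254, 1059 and 1206 CPM in WT and at 1374, 1277 and 1516 CPM in ten1-31. All ten1-31 libraries were above all WT libraries, with a log2 change of 0.24 ± 0.10 (SE, edgeR, adjusted p = 0.0688), against a median of 0.38 for chromosome IX. It passed the threshold without WT replicate 1 (0.29, adjusted p = 0.0368). Scaled on its chromosome, its sign reversed to -0.15 ± 0.09 (SE, edgeR, adjusted p = 0.196).

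**Figure D3:**
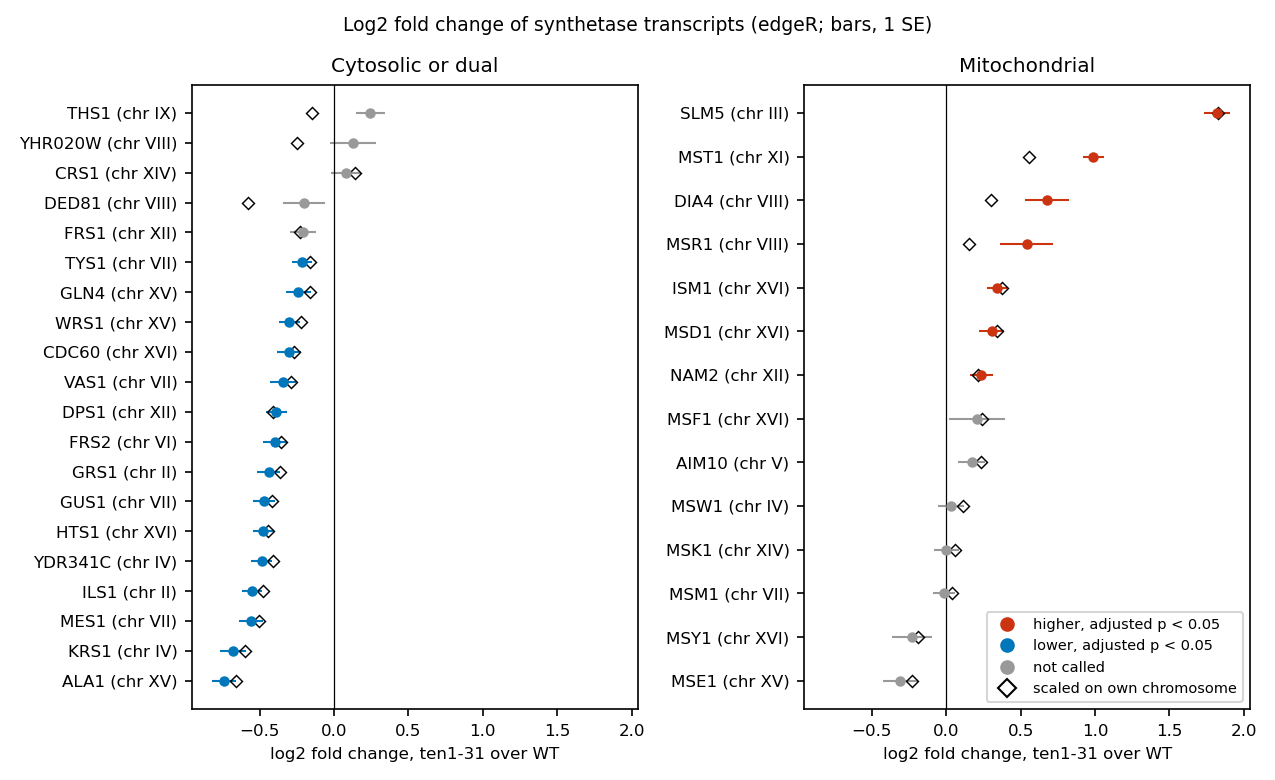
Log2 fold change of each synthetase gene in ten1-31 over WT from edgeR (filled circles, bars 1 SE; red higher, blue lower, grey not past an adjusted p of 0.05) and with counts scaled on the own chromosome (open diamonds). The 15 cytosolic genes called lower run from -0.21 to -0.74, SLM5 lies at 1.82, and the diamonds part from the circles mainly for the genes on chromosomes VIII, IX and XI.

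SLM5 (YCR024C, chromosome III, 160744 to 162222), the mitochondrial asparaginyl enzyme gene, had the largest change of the family. Its counts were 367, 343 and 326 over WT replicates 1 to 3, against 1248, 1004 and 1361 for the mutant. In CPM this was 27.2 ± 2.45 against 95.9 ± 2.36 (n = 3 each, SD). The genotypes were far apart, with a log2 change of 1.82 ± 0.09 (SE, edgeR, adjusted p = 2.67e-05), a level 3.53-fold that of WT. It was called in all fits, between 1.76 and 1.90. Per kb of coding length SLM5 went from 18.4 to 64.8 CPM, from next to the lowest to the highest of the mitochondrial synthetases. The median over its chromosome was -0.02. The RefSeq neighbour 370 bp away, YCR023C, had a log2 change of 0.22, and YCR024C-B, 376 bp away, had no row.

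MST1 (chromosome XI, 77258 to 78646), for mitochondrial threonine, had 411, 362 and 400 counts in WT and 756, 643 and 892 in ten1-31. Its 30.7 ± 0.708 CPM in WT and 60.7 ± 2.41 CPM in ten1-31 (n = 3 each, SD) were well separated, with a log2 change of 0.99 ± 0.07 (SE, edgeR, adjusted p = 5.93e-05). The median over chromosome XI was 0.42, and the neighbours MIA40 and SDS22 had log2 changes of 0.66 and 0.67. Scaled on its chromosome, MST1 was still higher, by 0.56 ± 0.07 (SE, edgeR, adjusted p = 0.000364).

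DIA4 (127780 to 129120) and MSR1 (284839 to 286770) lie on chromosome VIII and encode the probable mitochondrial seryl enzyme and the mitochondrial arginyl enzyme. DIA4 had 308, 299 and 322 counts in WT and 564, 457 and 425 in ten1-31, or 22.5, 25.9 and 24.6 CPM against 44.1, 42.4 and 30.3 CPM. MSR1 had 647, 535 and 567 counts in WT and 1026, 777 and 663 in ten1-31, or 47.2, 46.4 and 43.3 CPM against 80.2, 72.1 and 47.2 CPM. In ten1-31 replicate 3 DIA4 stayed above every WT library, whereas MSR1 overlapped WT. The log2 changes were 0.67 ± 0.15 for DIA4 and 0.54 ± 0.18 for MSR1 (SE, edgeR, adjusted p = 0.00671 and 0.0368). On the scale of their chromosome, DIA4 was at 0.30 ± 0.08 and still called, and MSR1 was at 0.15 ± 0.08 and not called (SE, edgeR, adjusted p = 0.0166 and 0.132). MSR1 was called in 1 of the 6 fits that left out a library, that without ten1-31 replicate 3, and its adjusted p reached 0.126 in the others. MSR1 and YDR341C are paralogs, and shared reads would be uncertain.

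ISM1 (475993 to 479001) and MSD1 (355700 to 357676), both on chromosome XVI, charge mitochondrial isoleucine and aspartate. ISM1 had 973, 874 and 948 counts in WT and 1165, 1024 and 1287 in ten1-31, or 73.1 ± 2.47 and 92.6 ± 2.15 CPM (n = 3 each, SD). MSD1 had 671, 627 and 602 counts against 772, 652 and 893, or 49.8 ± 4.27 and 61.5 ± 1.83 CPM (n = 3 each, SD). Neither overlapped between genotypes in CPM. The log2 changes were 0.34 ± 0.07 and 0.30 ± 0.08 (SE, edgeR, adjusted p = 0.00437 and 0.0179). ISM1 was called in every fit, and MSD1 in 2 of the 6 fits with a library left out, those without WT replicate 1 or 2, with adjusted p-values up to 0.0645.

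NAM2, the mitochondrial leucyl enzyme gene, whose product also helps to splice mitochondrial introns, went from 88.0 ± 5.55 to 104 ± 6.01 CPM (n = 3 each, SD; log2 change 0.24 ± 0.08 SE, edgeR, adjusted p = 0.0395). Scaled on its chromosome it was at 0.21 (adjusted p = 0.0596), and it was called in 2 of the 6 fits with a library left out, those without WT replicate 1 or 2, with adjusted p-values up to 0.155. The count of mitochondrial genes called higher was 4 in place of 7 when WT replicate 3, ten1-31 replicate 1 or ten1-31 replicate 2 was left out. SLM5, MST1, ISM1 and DIA4 were called higher in every fit, with adjusted p-values up to 0.0330. For this count too, the share of all rows called in every fit was not computed.

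The other 7 mitochondrial genes were not called. AIM10, for the probable prolyl enzyme, MSF1, for phenylalanine, and MSW1, for tryptophan, had log2 changes of 0.17, 0.20 and 0.03. MSK1, for lysine, and MSM1, for methionine, were close to 0, at -0.0011 and -0.01, and their sign turned under some settings. MSE1, for glutamate, and MSY1, for tyrosine, had log2 changes of -0.31 ± 0.12 and -0.23 ± 0.13 (SE, edgeR, adjusted p = 0.0585 and 0.183). MSE1 and MSY1 overlapped between genotypes because WT replicate 1 lay low, at 38.3 and 42.6 CPM against 48.6 to 61.4 CPM in the other WT libraries. Without that library both were called lower (-0.43 and -0.36; edgeR, adjusted p = 0.00228 and 0.0134). MSF1 in WT replicate 1 was also low, at 19.3 CPM against 33.7 and 29.6 CPM.

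WT replicate 1 stood apart from the other WT libraries over the whole table, and in the cytosolic or dual genes mostly in the same direction. Over all rows, the chi-square over degrees of freedom was 72.0 and 33.6 between WT replicate 1 and WT replicates 2 and 3. Between WT replicates 2 and 3 it was 18.6. WT replicate 1 had the highest CPM of the 3 WT libraries in 19 of 20 cytosolic or dual genes, against 37.3% of all rows tested. It had the lowest in 8 of 14 mitochondrial genes (57.1%), which is nearer the share of all rows, 44.4%. The median coefficient of variation over WT libraries was 7.27% for cytosolic or dual and 7.87% for mitochondrial genes, and 3.16% and 4.29% over ten1-31 libraries. Over all rows tested it was 8.99% in WT and 4.74% in ten1-31. Without WT replicate 1 the counts were 14 cytosolic or dual genes lower and 2 higher, and 6 mitochondrial genes higher and 2 lower.

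Enzymes for the same amino acid can be set side by side. For 13 amino acids a cytosolic and a mitochondrial gene both had a row, giving 14 pairs because MSF1 was set beside both FRS1 and FRS2. The WT level per kb was 11.7 to 36.5 times higher for the cytosolic gene, with a median of 15.5. The mitochondrial log2 change was above the cytosolic in 13 of 14 pairs, with a median difference of 0.57, and also in 13 of 14 with rows scaled on their own chromosomes. The count ran from 11 to 14 over the fits that left out a library. The pairs share libraries and are described without a test.

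The difference was widest for asparagine (DED81 and SLM5, 2.02), arginine (YDR341C and MSR1, 1.03) and isoleucine (ILS1 and ISM1, 0.89). The first 2 of these each have a gene on chromosome VIII, and with own-chromosome scaling they were 2.41 and 0.56. For isoleucine it was then 0.85. Tyrosine was the exception, with TYS1 at -0.21 and MSY1 at -0.23. For proline the pair differed by 0.04, and by 0.49 with own-chromosome scaling.

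**Figure D4:**
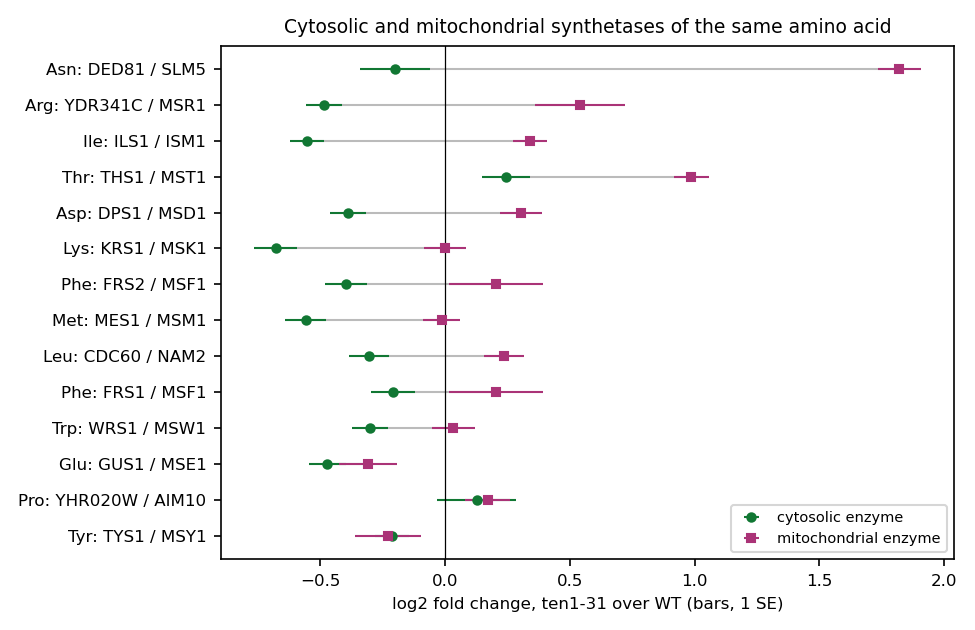
Log2 fold changes (bars, 1 SE) of the cytosolic (circles) and mitochondrial (squares) synthetase genes for the same amino acid, ordered by their difference. The mitochondrial gene lies to the right in 13 of 14 pairs, with the widest gap for asparagine (2.02), and tyrosine is the exception.

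By structural class, of the cytosolic or dual genes, 9 of 10 in class I and 6 of 10 in class II were lower (26.2% of all rows), and 3 of the 4 other class II genes are those on chromosomes VIII and IX. With own-chromosome scaling the counts were 7 and 8 of 10 (24.8% of all rows). Of the mitochondrial genes, 3 of 7 in class I and 4 of 7 in class II were higher (24.3% of all rows). With own-chromosome scaling these counts were 1 and 4 of 7 (23.7% of all rows).

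Other genes of translation were read from the same fit. Of 8 cytosolic elongation factor genes tested, 5 (62.5%) were lower and 0 higher, with a median log2 change of -0.45, against 26.2% lower and 24.3% higher of all rows and 37.4% lower in the level range of the cytosolic synthetases. The highest value was 0.29, for TEF4 on chromosome XI (edgeR, adjusted p = 0.0789), which turned to -0.15 when scaled on its chromosome. TEF4 was the 1 gene of this list higher at an unadjusted p under 0.05, and DESeq2 called it higher. The count of 5 lower became 3 without WT replicate 3 and without each ten1-31 library in turn, and EFT1, EFT2 and TEF2 were called in all of these fits. EFT1 and EFT2, which code for the same translocation factor eEF2, and TEF2, for eEF1A, had log2 changes of -0.74, -0.71 and -0.72 (edgeR, adjusted p = 0.000560, 0.000552 and 0.000555). EFT1 with EFT2 and TEF1 with TEF2 are near-identical copies, so values of single copies are uncertain. GCN4 (YEL009C) went from 1301 ± 23.6 to 904 ± 19.4 CPM (n = 3 each, SD; log2 change -0.53 ± 0.07 SE, edgeR, adjusted p = 0.000599). The activity of Gcn4 is set largely by translation of its mRNA in yeast, which was not measured here.

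Genes that process, modify, export or unload tRNA, or act beside the synthetases, numbered 17, of which 6 (35.3%) were higher and 4 (23.5%) lower, near the 24.3% and 26.2% of all rows. THG1, which adds the guanylate that the histidyl enzyme recognises on its tRNA, fell from 71.1 ± 10.1 to 41.2 ± 1.74 CPM (n = 3 each, SD; log2 change -0.79; edgeR, adjusted p = 0.00106). TPT1, of tRNA splicing, had a log2 change of -0.57, and CEX1, of tRNA export, 0.50 (edgeR, adjusted p = 0.00121 and 0.00163).

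Among other mitochondrial translation genes, of 64 mitochondrial ribosomal protein genes tested, 9 (14.1%) were higher and 12 (18.8%) lower, with a median log2 change of -0.09, both shares below the 24.3% and 26.2% of all rows. The count lower became 29 of 64 without WT replicate 1, where 2974 of all rows were called in either direction. It became 5 to 7 without WT replicate 2 or 3 or ten1-31 replicate 1 or 2. Shares of all rows lower or higher are not given for the fits that left out a library. The reading below all rows is thus for the fit with all libraries. The count higher ran from 4 to 11 over these fits, with 6 without WT replicate 1, 5 without WT replicate 3 and 4 without ten1-31 replicate 2 or 3. With all libraries and own-chromosome scaling, 6 of the 64 were higher and 10 lower, against 23.7% and 24.8% of all rows. The genes called were not all the same in that fit. MRP7 and MRPS12 fell, with log2 changes of -0.49 and -0.40 (edgeR, adjusted p = 0.00407 and 0.00625). MRPL31, on chromosome XI, was higher at 0.65 (adjusted p = 0.00272) and not called when scaled on its chromosome (0.22, adjusted p = 0.121). Of 7 mitochondrial translation factor genes, 2 (28.6%) were higher and 1 (14.3%) lower, with the same shares of all rows to read them against. The elongation factor gene MEF2 had a log2 change of 0.84, RRF1, for ribosome recycling and on chromosome VIII, 0.65, and MRF1, for release, -0.61 (edgeR, adjusted p = 0.000779, 0.0101 and 0.00235). Scaled on chromosome VIII, RRF1 was at 0.28 (edgeR, adjusted p = 0.0282). RRF1 was not called without WT replicate 3 (0.62, adjusted p = 0.0503), which left 1 gene higher. Without WT replicate 2 there were 3. The difference between the mitochondrial synthetases and these lists was not tested.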

How the data were processed

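The authors deposited 1 table of raw read counts per gene, with 1 column for each of the 6 RNA-seq libraries, and the count unit was read from its whole numbers. The submitters' processing notes name FastQC, cutadapt, Trimmomatic, TopHat2, Bowtie2 and featureCounts and the builds R64 and sacCer3. Roles, versions, strand setting and row filter are not given in the sources used here, although the kit was directional. The 12 ChIP-seq samples were not analysed here.

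Genes were named from RefSeq (R64), whose gene lengths hold coding length. All rows were fitted by edgeR 4.0.16 (R 4.3.3) and its quasi-likelihood test (TMM scaling, filterByExpr with a minimum count of 10 and minimum total of 15), with Benjamini-Hochberg adjustment over 5133 rows and a threshold of 0.05. SE is the log2 fold change over the square root of F. CPM uses TMM-scaled library sizes. Own-chromosome scaling subtracts each chromosome's median log2 deviation per library, which also removes any genotype difference shared by a chromosome. That scaling, and leaving out chromosome XI beside VIII and IX, were chosen after seeing the data. The procedure was tested on simulated data. Alternatives used DESeq2 1.42.0, limma-voom (limma 3.58.1), other scalings and filters, a replicate block and leaving out libraries. Replicates of 1 genotype differed beyond sampling noise (chi-square over degrees of freedom at least 5.33).

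All members were named; counts per library were given for the 6 largest rises and falls, dual genes and called genes that overlap. Of the other lists, the 3 called genes with the smallest p were named, with ARC1, GRS2 and GCN4. Members and lists were chosen with earlier results of these data known. Neighbours of members, TEF4 and TRP1 were named outside that rule, and the mitochondrial translation lists are RefSeq symbols.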

Additional observations from a re-analysis of the deposited data

How the results depend on the processing

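Directions of the 15 cytosolic and 7 mitochondrial genes called held under every alternative. With all libraries 0 cytosolic or dual genes were called higher, and 1 was with scaling by library size alone, by DESeq2 and with the replicate block. Over fits that left out 1 library it ran from 0 to 2, genes called lower from 11 to 16, and their median from -0.39 to -0.29. Mitochondrial genes called higher ran from 4 to 6 and lower from 0 to 2, with a median from 0.17 to 0.32, pairs from 11 to 14 and all rows called from 1824 to 2974 (2591 with all libraries). Upper quartile scaling gave 1 mitochondrial gene lower. Library size only moved the medians to -0.28 and 0.30. An adjusted p under 0.01 left 1660 rows and 4 mitochondrial genes higher, and leaving out the genes on chromosomes VIII, IX and XI left 4 too, both by construction.

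Signs turned for genes that were not called. MSK1 was at 0.00830 (DESeq2 size factors), 0.0772 (library size only), 0.00278 (stricter filter), 0.00884 (DESeq2), 0.00317 (limma-voom), 0.00256 (replicate block) and 0.0605 (own chromosome), and from -0.0617 to 0.0683 over fits that left out a library. MSM1 was at 0.0664 and 0.0410 with library size only and on its own chromosome, and from -0.0555 to 0.0303 with a library left out. MSW1 was at -0.0168 with upper quartile scaling, and from -0.0154 to 0.0689 with a library left out. YHR020W was at -0.25 on its own chromosome and from -0.0357 to 0.27 with a library left out. THS1 was at -0.15 on its own chromosome. ARC1 was at 0.0665 and 0.0382 with library size only and on its own chromosome, and from -0.0598 to 0.0551 with a library left out. The cause was not tested, apart from the construction of the own-chromosome scaling.

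Same-numbered libraries deviated together at correlations of 0.20, 0.21 and 0.09, and each correlated best with its own number, a hint from the data. As not all exceeded 0.1 and no label states a pairing, they were not treated as paired. With the replicate block, 2630 rows were called, 14 cytosolic genes were lower and 1 higher, and 6 mitochondrial genes higher. The promoter search for TGACTC was not run, since no promoter sequences were used here. The lowest synthetase count in any library was 257, and each genotype had 3 libraries. How much of the spread of the mitochondrial genes, which had the lower counts, comes from depth was not tested.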
